A study of Mus musculus with 12 samples.

Results

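The secreted and membrane-bound matrix metalloproteinases (MMPs) and their inhibitors were followed in mouse bone marrow-derived macrophages (BMDMs), cells that mature in culture from marrow precursors. The members were chosen by name, as the table rows whose gene symbol was Mmp8, Mmp9, Mmp12, Mmp13, Mmp14, Mmp19, Timp1, Timp2 or Timp3. This gave 9 genes of the 23847 rows measured, each with a single row. Of these, 8 had 1 FPKM or more in 1 or more samples and entered the tests, together with all 11191 rows that did so. Timp3 did not. FPKM is the number of fragments per kilobase of transcript, scaled by the mapped fragments of the sample, so levels of different genes can be set side by side.

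The 12 samples were wild-type C57BL/6 BMDMs from mice 8 to 12 weeks old, and all groups had been differentiated for 6 days in medium with L929 cell supernatant as the source of M-CSF. Control cells had no further treatment, IL-4 cells had IL-4 at 20 ng/ml for 24 h, LPS cells had LPS at 100 ng/ml for 3 h, and IL-4+LPS cells had the IL-4 treatment followed by the LPS treatment. The study's methods give the LPS dose in another unit, so the dose is as the labels state it. Each group held 3 samples numbered 1 to 3, which the study describes as from individual animals in more than 1 independent experiment. Since neither the labels nor the methods tie a number to an animal or experiment, the p-values measure the spread between these samples.

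MMPs are zinc-dependent proteases that cut collagens, elastin and other matrix proteins, and also release or inactivate cytokines and chemokines. They are made as inactive proenzymes, and their activity outside the cell is held in check by tissue inhibitors of metalloproteinases (TIMPs), which bind the active site. Transcript levels therefore do not give protease activity. In macrophages, the bacterial lipopolysaccharide LPS sets off an inflammatory program through TLR4, whereas the cytokine IL-4 acts through STAT6 and leads to alternative polarization.

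FPKM totals per sample lay between 457583 and 495025, and sequencing depth relative to control replicate 1, read from the steps of low values, ran from 0.991 to 3.30. Replicate 1 had the lowest depth of each group, at 0.991 to 1.03, against 1.27 to 3.30 for replicates 2 and 3. Across all expressed genes, replicate 1 stood apart within each group, and the part of its lower depth in this was not tested. Its correlations with the other replicates on the log2 scale were 0.954 to 0.962, against 0.974 to 0.983 between replicates 2 and 3. Fits with replicates 2 and 3 only, given below, were chosen after this was seen. Leaving out the samples that stood apart narrows the spread, so the p-values of those fits are a description and not added support. All 9 macrophage markers found in the files (among them Csf1r, Cd68 and Emr1) were at or above 1 FPKM in every sample. Their summed level was 20214 to 21510 FPKM for control samples, 8329 to 8553 for IL-4, 17339 to 18340 for LPS and 7209 to 7531 for IL-4+LPS. It was lower in both groups given IL-4, and its part in the IL-4 results was not tested. Of 11 neutrophil markers, 7 to 9 reached 1 FPKM, with summed levels of 378 to 980 FPKM for control samples, 238 to 454 for IL-4, 572 to 1174 for LPS and 473 to 948 for IL-4+LPS, and none was at 0 in any sample. Most of this sum was S100a8 and S100a9, at means of 258 and 299 FPKM in control and 340 and 409 in LPS. Camp and Ngp were also higher in LPS. Not every marker was, since Elane was at 5.53 FPKM in control and 3.63 in LPS, and Mpo at 5.46 and 3.26. Since Mmp8 and Mmp9 are also neutrophil genes, neutrophil RNA may enter their values, and its part in the results was not tested. Of 8 fibroblast markers, Pdgfrb alone passed 1 FPKM, and the list summed to 0.277 to 0.2998 FPKM for control samples, 0.0968 to 0.235 for IL-4, 2.42 to 3.59 for LPS and 1.89 to 3.11 for IL-4+LPS, with Lum at 0 throughout and the collagens Col1a1, Col1a2 and Col3a1 below 0.1 FPKM in every sample. In bulk samples, a change in the number of such cells and a change in RNA per cell cannot be told apart.

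The promoter sequences of 4 members are shown because 3 of them, Mmp13, Mmp12 and Mmp8, lie in a single gene cluster on chromosome 9, and because Timp1 is the inhibitor that rose with LPS. RefSeq (GRCm38.p6, the same assembly as mm10) gave promoters for 7 of the 9 members. Mmp9 and Mmp19 were not matched. The 150 bases before the annotated start are printed 5′ to 3′ on the gene's strand, and capitals mark matches to the motifs searched.
Mmp13 (chr9:7272364-7272513, + strand): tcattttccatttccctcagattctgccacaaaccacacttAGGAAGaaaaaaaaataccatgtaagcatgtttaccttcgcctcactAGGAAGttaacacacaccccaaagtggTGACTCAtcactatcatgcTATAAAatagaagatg
Mmp12 (chr9:7347224-7347373, + strand): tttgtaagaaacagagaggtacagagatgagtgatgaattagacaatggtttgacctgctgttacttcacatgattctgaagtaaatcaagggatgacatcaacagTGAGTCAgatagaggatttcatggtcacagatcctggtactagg
Mmp8 (chr9:7558279-7558428, + strand): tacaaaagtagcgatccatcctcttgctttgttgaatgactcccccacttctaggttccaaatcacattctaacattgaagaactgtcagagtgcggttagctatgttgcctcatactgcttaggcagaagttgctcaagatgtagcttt
Timp1 (chrX:20870016-20870165, + strand): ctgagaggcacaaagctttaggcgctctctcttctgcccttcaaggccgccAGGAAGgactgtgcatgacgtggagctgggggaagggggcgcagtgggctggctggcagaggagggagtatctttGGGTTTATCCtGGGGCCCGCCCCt
The motifs were searched on both strands in the 250 bases before the start. The AP-1 motif TGANTCA, found in 6.75% of 32851 RefSeq mouse promoters, ended 29 bases before the start of Mmp13 and 38 bases before that of Mmp12. The motif AGGAAG, called PEA3 and found in 29.5% of promoters, had 2 matches in Mmp13, 2 in Timp1 and 1 each in Mmp8, Mmp14 and Timp3. A TATAAA sequence, in 12.4% of promoters, matched once, in Mmp13. The loose NF-kB pattern GGGNNNNNCC, in 45.8% of promoters, had 4 matches in Timp1, 3 of which overlap each other, and 2 in Timp3. The STAT patterns TTCNNNGAA and TTCNNNNGAA, in 7.02% and 5.85% of promoters, had no match in the windows of these members. The window before another RefSeq start of Mmp12, at 7344397, had 1 NF-kB and 1 PEA3 match. The Timp2 window had no match. A match is a description of the letters and says nothing about binding.

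**Figure D1:**
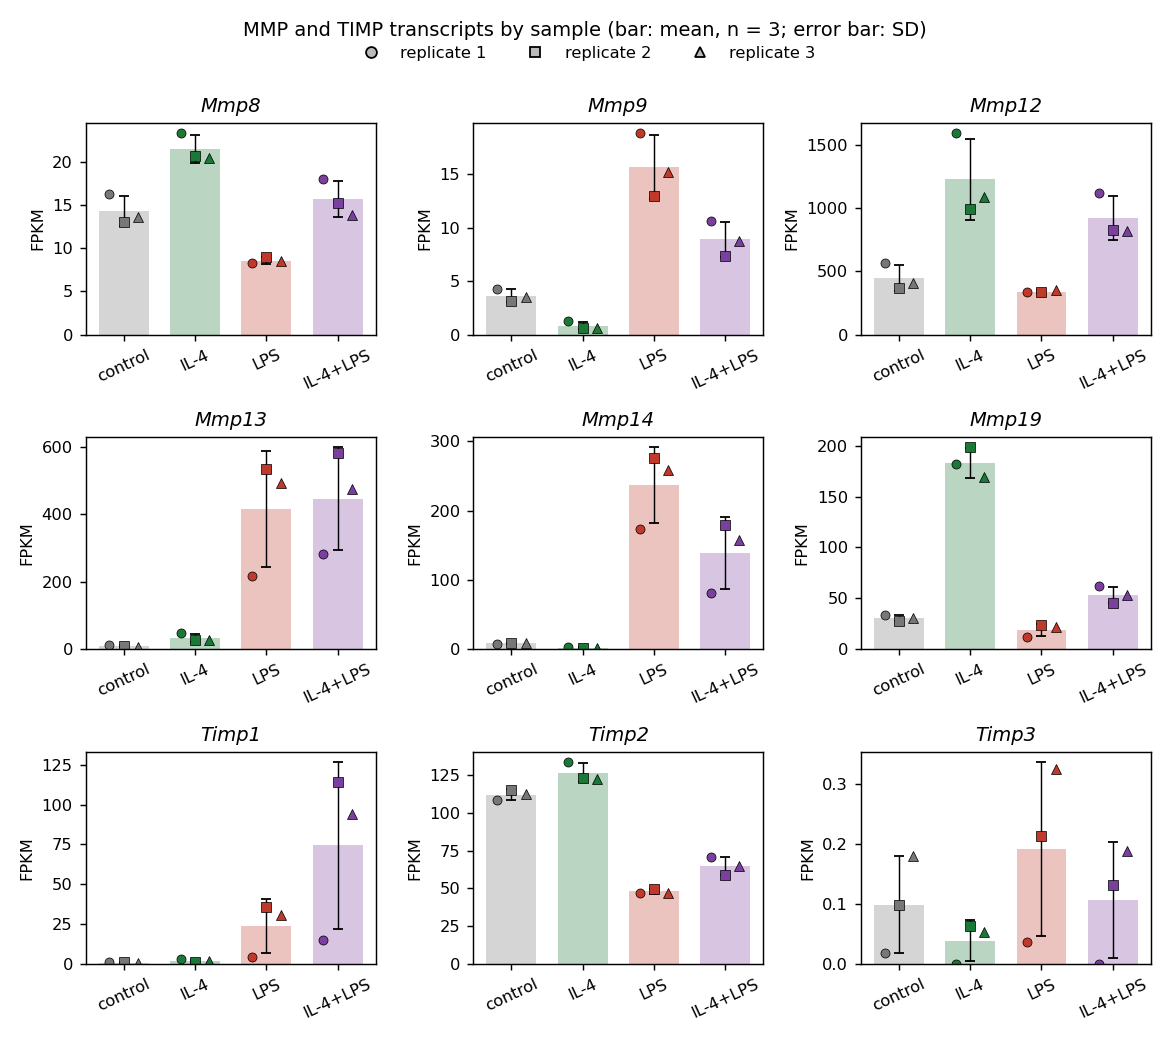
Expression of the 9 members in FPKM (y axis, linear and different for each gene) in the 4 groups (x axis). Bars are group means of 3 samples, error bars are SD, and symbols show replicates 1, 2 and 3. Mmp13, Mmp14 and Timp1 are high in both groups given LPS, Mmp12 and Mmp19 are high in IL-4, and replicate 1 is the lowest of its group for Mmp13, Mmp14 and Timp1 after LPS.

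LPS given to resting cells raised 4 members and lowered 3. Mmp13, Mmp14, Timp1 and Mmp9 rose, Timp2, Mmp19 and Mmp8 fell, and Mmp12 did not pass the threshold. By limma on log2(FPKM + 1) with Benjamini-Hochberg adjustment over all rows tested, 16.9% of rows were higher and 57.7% were lower in LPS than in control, so 3 of 8 falling members is not above the share of all genes. The median log2 difference was 0.74 over the 8 members and −0.44 over all rows tested.

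Mmp13 encodes collagenase 3, which cuts fibrillar collagen. It lies on chromosome 9 (mm10, 7272514 to 7283333, + strand). Its level was 11.7, 8.66 and 7.67 FPKM in control replicates 1 to 3 and 217, 534 and 494 FPKM after LPS. All LPS samples were far above all control samples, and replicate 1 was the lowest of the LPS samples. The group means were 9.35 ± 2.10 and 415 ± 173 FPKM (SD, n = 3), a ratio of 44.4 and a log2 difference of 5.24 (SE 0.38, adjusted p = 6.52e-07 by limma). Of the 8 members tested this was the widest difference in any of the comparisons with control. With replicates 2 and 3 only, it was 5.81 (adjusted p = 8.72e-08 by limma).

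Mmp14 encodes MT1-MMP, a protease anchored in the cell membrane that cuts collagen and activates the proenzymes of MMP2 and MMP13. It lies on chromosome 14 (54431604 to 54441258, + strand). Control samples had 7.12, 8.97 and 8.41 FPKM and LPS samples 174, 276 and 259 FPKM. The groups did not overlap, and the mean rose from 8.17 ± 0.95 to 236 ± 54.9 FPKM (SD, n = 3), 29.0-fold, with a log2 difference of 4.67 (SE 0.27, adjusted p = 1.36e-07 by limma). Mmp2, the gelatinase whose proenzyme MT1-MMP activates, did not exceed 0.483 FPKM in any sample.

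Mmp9 encodes gelatinase B, which cuts denatured collagen and type IV collagen of basement membranes. It lies on chromosome 2 (164948251 to 164955846, + strand). Its level was 4.28, 3.12 and 3.50 FPKM in control and 18.9, 12.9 and 15.2 FPKM in LPS, with no overlap. The rise from 3.63 ± 0.59 to 15.7 ± 3.01 FPKM (SD, n = 3) was 4.32-fold, with a log2 difference of 1.84 (SE 0.18, adjusted p = 5.26e-06 by limma).

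The inhibitors moved in opposite directions. Timp1, a secreted inhibitor of many MMPs, lies on chromosome X (20870166 to 20874737, + strand) within Syn1, with which it shares no exon base. It was at 0.852, 0.819 and 0.369 FPKM in control and at 4.13, 35.7 and 30.7 FPKM in LPS. LPS replicate 1 was above every control sample but 8.04-fold below the mean of LPS replicates 2 and 3. The group means were 0.680 ± 0.270 and 23.5 ± 17.0 FPKM (SD, n = 3), a ratio of 34.6 with a log2 difference of 3.45 (SE 0.82, adjusted p = 0.00286 by limma). With replicates 2 and 3 only, the log2 difference was 4.43 (adjusted p = 1.06e-06 by limma). Timp1 had the widest relative spread of the 8 members after LPS.

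Timp2, which inhibits MMPs and also forms the complex with MT1-MMP through which the MMP2 proenzyme is activated, lies on chromosome 11 (118301061 to 118355411, − strand). It had 108, 116 and 113 FPKM in control and 47.0, 49.7 and 47.2 FPKM in LPS. Replicates differed little and the groups were far apart, with means of 112 ± 3.59 and 48.0 ± 1.54 FPKM (SD, n = 3). Timp2 fell by 1.21 on the log2 scale (SE 0.07, adjusted p = 1.71e-07 by limma).

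Timp3, an inhibitor that binds to the extracellular matrix (chromosome 10, 86300412 to 86349505, + strand), was close to 0 throughout. Its values were 0.0186, 0.0973 and 0.180 FPKM in control cells, 0, 0.0627 and 0.0533 with IL-4, 0.0360, 0.214 and 0.324 with LPS, and 0, 0.132 and 0.188 with both. The groups overlapped. It was not tested, and 21.3% of its annotated exon bases are shared with Syn3 on the opposite strand, which was no higher than 0.194 FPKM.

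Among the metalloproteinases that were not raised by LPS, Mmp8 encodes the collagenase first known from neutrophils (chromosome 9, 7558429 to 7568486, + strand). It was at 16.3, 13.1 and 13.6 FPKM in control and at 8.27, 9.02 and 8.50 FPKM in LPS. The LPS samples were all lower, and Mmp8 fell by 0.67 on the log2 scale (SE 0.11, adjusted p = 0.000195 by limma). Mmp19, a broadly acting secreted MMP of chromosome 10 (128790910 to 128800824, + strand), was at 33.2, 28.0 and 30.3 FPKM in control and at 12.3, 23.5 and 21.4 FPKM in LPS. The groups did not overlap, and Mmp19 fell by 0.70 (SE 0.20, adjusted p = 0.0087 by limma). This call was lost when samples were scaled to a common median, where the difference was −0.30 (adjusted p = 0.21), and in a per-gene Tukey test (adjusted p = 0.0546). Without LPS replicate 1 the difference was −0.43 (adjusted p = 0.0121 by limma). Of the annotated exon bases of Mmp19, 22.3% are shared with Tmem198b on the opposite strand, which was no higher than 10.4 FPKM, and the library kit did not mark strand.

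Mmp12 encodes macrophage elastase, which cuts elastin, and lies on chromosome 9 (7347374 to 7360461, + strand). It had the highest level of the 9 members in control, at 564, 366 and 409 FPKM, and was at 334, 333 and 350.3 FPKM in LPS. The LPS samples were all lower than the control samples, but the log2 difference of −0.37 (95% interval −0.82 to 0.08, adjusted p = 0.119 by limma) did not pass the threshold. Control replicate 1 was the highest of the control samples, and with replicates 2 and 3 only the difference was −0.18 (adjusted p = 0.0465 by limma). The direction turned with the scaling, to 0.037 under median scaling (adjusted p = 0.889 by limma) and to −0.58 under quantile normalization (adjusted p = 0.0328 by limma).

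Because FPKM is relative to the other RNA of a sample, the fall of most genes after LPS moves with the scale. Scaling each sample to a common median shifted the median of all rows by 0.33 in LPS minus control and by 0.33 in IL-4+LPS minus IL-4. The split of all rows in LPS minus control went from 1887 higher and 6462 lower to 3120 higher and 4231 lower, and in IL-4+LPS minus IL-4 from 1682 higher and 6474 lower to 2867 higher and 3748 lower. Set against the median of all rows in LPS minus control, Mmp13, Mmp14, Timp1 and Mmp9 were higher by 5.69, 5.12, 3.89 and 2.29 log2 units. On the same measure Timp2 was at −0.76, Mmp19 at −0.25, Mmp8 at −0.23 and Mmp12 at 0.07.

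IL-4 alone divided the family differently. Mmp19, Mmp12, Mmp13 and Mmp8 rose, Mmp14 and Mmp9 fell, and Timp1 and Timp2 did not pass the threshold. Of all rows tested, 16.0% were higher and 21.0% lower in IL-4 than in control, and 4 of the 8 members were higher and 2 lower. The median log2 difference was 0.66 over the members and −0.05 over all rows. This comparison and LPS minus control share the control samples.

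Mmp19 was at 182, 198 and 169 FPKM after IL-4, each more than any control sample, with means of 30.5 ± 2.63 in control and 183 ± 14.8 FPKM in IL-4 (SD, n = 3). The ratio was 6.00 and the log2 difference 2.55 (SE 0.20, adjusted p = 6.07e-06 by limma). Mmp12 was at 1597, 996 and 1088 FPKM, the highest level of any member in any group. The mean went from 446 ± 104 to 1227 ± 324 FPKM (SD, n = 3), 2.75-fold, with a log2 difference of 1.45 (SE 0.20, adjusted p = 0.000338 by limma).

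Mmp13 also rose with IL-4, to 47.7, 26.3 and 26.6 FPKM. All IL-4 samples were above all control samples, and the ratio of means was 3.59 (log2 difference 1.70, adjusted p = 0.0058 by limma). Mmp8 rose to 23.4, 20.8 and 20.5 FPKM, a log2 difference of 0.56 (SE 0.11, adjusted p = 0.00225 by limma). The collagenases Mmp8 and Mmp13 were thus both higher with IL-4, while with LPS Mmp13 was higher and Mmp8 lower.

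Mmp14 fell to 2.45, 1.76 and 1.96 FPKM after IL-4, below every control sample (log2 difference −1.59, SE 0.27, adjusted p = 0.00118 by limma). Mmp9 fell to 1.25, 0.653 and 0.618 FPKM (log2 difference −1.34, SE 0.18, adjusted p = 0.000262 by limma). On the log2(FPKM + 1) scale the change of such low values is understated.

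Timp1 was at 2.70, 1.37 and 1.54 FPKM in IL-4, above each control sample, but the log2 difference of 0.76 was within its error (adjusted p = 0.507 by limma). With replicates 2 and 3 only it was 0.63 (adjusted p = 0.0164 by limma), and with only the compared groups in the fit it passed the threshold as well (adjusted p = 0.0354 by limma). Timp2 was at 134, 123 and 123 FPKM, all above control, with a log2 difference of 0.17 (95% interval 0.01 to 0.33, adjusted p = 0.0881 by limma).

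The summed level of the 8 osteoclast markers was also higher with IL-4. It was 608 to 799 FPKM in IL-4 and 352 to 436 FPKM in IL-4+LPS, against 176 to 286 in control and 111 to 120 in LPS, with Calcr and Oscar at or near 0. In control and IL-4 most of the sum was Atp6v0d2, at means of 163 FPKM in control and 524 in IL-4. Not every marker was higher, since Nfatc1 was at 16.7 FPKM in control and 10.5 in IL-4, and Acp5 was at 15.0 in IL-4 but 29.3 in LPS. The part of this list in the IL-4 results for the MMPs was not tested.

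**Figure D2:**
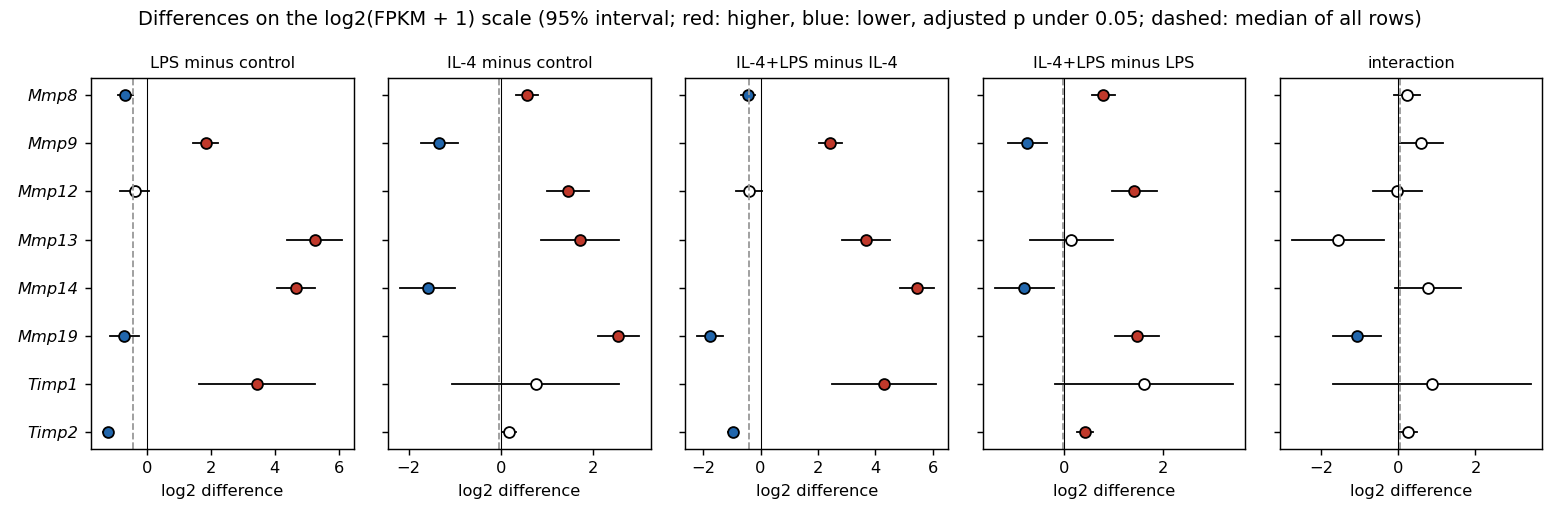
Log2 differences of the 8 tested members (x axis, log2(FPKM + 1), scale different in each panel) in the 4 comparisons and the interaction, with 95% intervals from limma. Red points are higher and blue points lower at an adjusted p under 0.05, open points did not pass, and the dashed line is the median of all 11191 rows. Mmp13, Mmp14, Timp1 and Mmp9 lie well right of the line in both LPS comparisons, and Mmp12 lies just right of it. In both IL-4 comparisons all members except Mmp14 and Mmp9 lie right of the line.

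To ask how LPS acts on cells already exposed to IL-4, IL-4+LPS was compared with IL-4. Mmp14, Timp1, Mmp13 and Mmp9 rose, Mmp19, Timp2 and Mmp8 fell, and Mmp12 did not pass the threshold. In this comparison 15.0% of all rows were higher and 57.9% lower. The median log2 difference was 1.02 over the 8 members and −0.41 over all rows.

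Mmp14 was at 80.9, 179 and 157 FPKM in IL-4+LPS, 67.8-fold the mean of IL-4 alone (log2 difference 5.45, SE 0.27, adjusted p = 5.25e-08 by limma). Mmp13 was at 281, 583 and 475 FPKM, 13.3-fold the mean of IL-4 alone (log2 difference 3.69, adjusted p = 9.83e-06 by limma). In FPKM the gains of Mmp13 were close, 406 without IL-4 and 413 with it, although its ratios were 44.4 and 13.3 from the different starting levels.

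Timp1 reached 14.8, 114 and 94.0 FPKM in IL-4+LPS, its highest level in the series. The mean was 74.3 ± 52.4 FPKM (SD, n = 3), 39.8-fold that of IL-4 (log2 difference 4.31, SE 0.82, adjusted p = 0.000731 by limma). As in LPS alone, replicate 1 was far lower, 7.01-fold below the mean of replicates 2 and 3. Mmp9 was at 10.7, 7.36 and 8.73 FPKM, a log2 difference of 2.43 (adjusted p = 8.82e-07 by limma).

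Mmp19 was at 61.6, 45.8 and 53.5 FPKM in IL-4+LPS, below all IL-4 samples, and fell by 1.76 on the log2 scale (SE 0.20, adjusted p = 1.94e-05 by limma). Timp2 was at 71.0, 59.2 and 64.5 FPKM and fell by 0.96 (adjusted p = 1.03e-06 by limma). Mmp8 was at 18.0, 15.2 and 13.9 FPKM and fell by 0.44 (adjusted p = 0.00359 by limma). The Mmp8 call was lost under median scaling, where the difference was −0.04 (adjusted p = 0.769). Mmp12 was at 1119.9, 829.6 and 818 FPKM, and the difference from IL-4 of −0.40 did not pass (adjusted p = 0.10 by limma). It was 0.023 under median scaling and −0.59 under quantile normalization (adjusted p = 0.0321 by limma).

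The effect of prior IL-4 in cells given LPS was read from IL-4+LPS against LPS. Mmp19, Mmp12, Mmp8 and Timp2 were higher after IL-4, Mmp14 and Mmp9 were lower, and Mmp13 and Timp1 did not pass the threshold. Of all rows, 15.0% were higher and 15.8% lower. This comparison shares the LPS samples with LPS minus control and the IL-4+LPS samples with the one above.

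Mmp19 was 2.81-fold higher than in LPS alone (log2 difference 1.48, adjusted p = 0.000285 by limma) and Mmp12 2.72-fold higher (log2 difference 1.43, adjusted p = 0.000407 by limma). The samples of either group did not overlap for these genes. Mmp8 was higher by 0.79 (adjusted p = 0.000283 by limma) and Timp2 by 0.42 (adjusted p = 0.00136 by limma). Mmp9 was lower by a log2 difference of −0.75 (SE 0.18, adjusted p = 0.00957 by limma), and its groups did not overlap.

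Mmp14 was lower in IL-4+LPS, at a mean of 139 ± 51.7 FPKM against 236 ± 54.9 in LPS (SD, n = 3), but its samples overlapped. The log2 difference of −0.81 (SE 0.27, adjusted p = 0.0438 by limma) was just past the threshold. It lost the call in 10 of the 12 fits that left out a sample, all except those without LPS replicate 1 or IL-4+LPS replicate 2, with adjusted p up to 0.135. The value itself ran from −1.03 to −0.46, the latter without IL-4+LPS replicate 1 (adjusted p = 0.0911 by limma). With replicates 2 and 3 only it was −0.67 (adjusted p = 0.000706 by limma).

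Mmp13 stood at like means in both groups given LPS, with a log2 difference of 0.15 (95% interval −0.70 to 0.99, adjusted p = 0.817 by limma). The interval is wide enough to hold a change of either sign. Timp1 had a mean of 74.3 FPKM in IL-4+LPS and 23.5 in LPS, but the log2 difference of 1.62 (95% interval −0.19 to 3.43, adjusted p = 0.166 by limma) did not pass. With replicates 2 and 3 only the same difference of 1.62 had an SE of 0.16 (adjusted p = 0.000348 by limma). With a sample left out it ran from 0.71 without LPS replicate 1 (adjusted p = 0.512 by limma) to 2.53 without IL-4+LPS replicate 1 (adjusted p = 0.0206 by limma), the only such fit in which it passed, and it was 1.10 without IL-4+LPS replicate 2 (adjusted p = 0.425 by limma).

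The interaction, which is the LPS difference after IL-4 minus the LPS difference without it, was called for 1 of the 8 members. Mmp19 had an interaction of −1.06 (SE 0.28, adjusted p = 0.0422 by limma), so its log2 fall with LPS was larger after IL-4. The call was lost in 10 of the 12 fits that left out a sample, all except those without LPS replicate 1 or IL-4+LPS replicate 1, with adjusted p up to 0.106. No member had a higher interaction in the limma fit with group alone, where 4.58% of all rows were higher and 4.63% lower. At an unadjusted p under 0.05, 2 members were higher and 2 lower, against 12.9% and 11.3% of all rows. A per-gene test of the interaction without the moderated spread called 1 higher and 2 lower. Its p-values were also unadjusted, and it was run for the members only.

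With replicates 2 and 3 only, a fit chosen after seeing the data, 5 members had an interaction past the threshold. These were Mmp14 at 1.09, Timp1 at 0.98 and Mmp9 at 0.66, and on the lower side Mmp13 at −1.55 and Mmp19 at −1.50, with adjusted p-values by limma from 0.00097 to 0.0244. In that fit 13.2% of all rows were higher and 12.4% lower. Over all samples Mmp13 was at −1.56 (SE 0.54, adjusted p = 0.105 by limma), and Mmp12 was at −0.02 (95% interval −0.66 to 0.61).

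In order of level, some groups could not be separated by their samples. No groups overlapped for Mmp9 (LPS, IL-4+LPS, control, IL-4 from high to low), Mmp19 (IL-4, IL-4+LPS, control, LPS) or Timp2 (IL-4, control, IL-4+LPS, LPS). For Mmp13 and Timp1, IL-4+LPS and LPS overlapped at the top, above IL-4 and then control. LPS and IL-4+LPS overlapped for Mmp14, above control and IL-4. IL-4 and IL-4+LPS overlapped for Mmp12, above control and LPS, and for Mmp8 IL-4+LPS and control overlapped between IL-4 and LPS. The share of all rows whose groups separate in this way was not computed, so these orders describe the members alone.

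**Figure D3:**
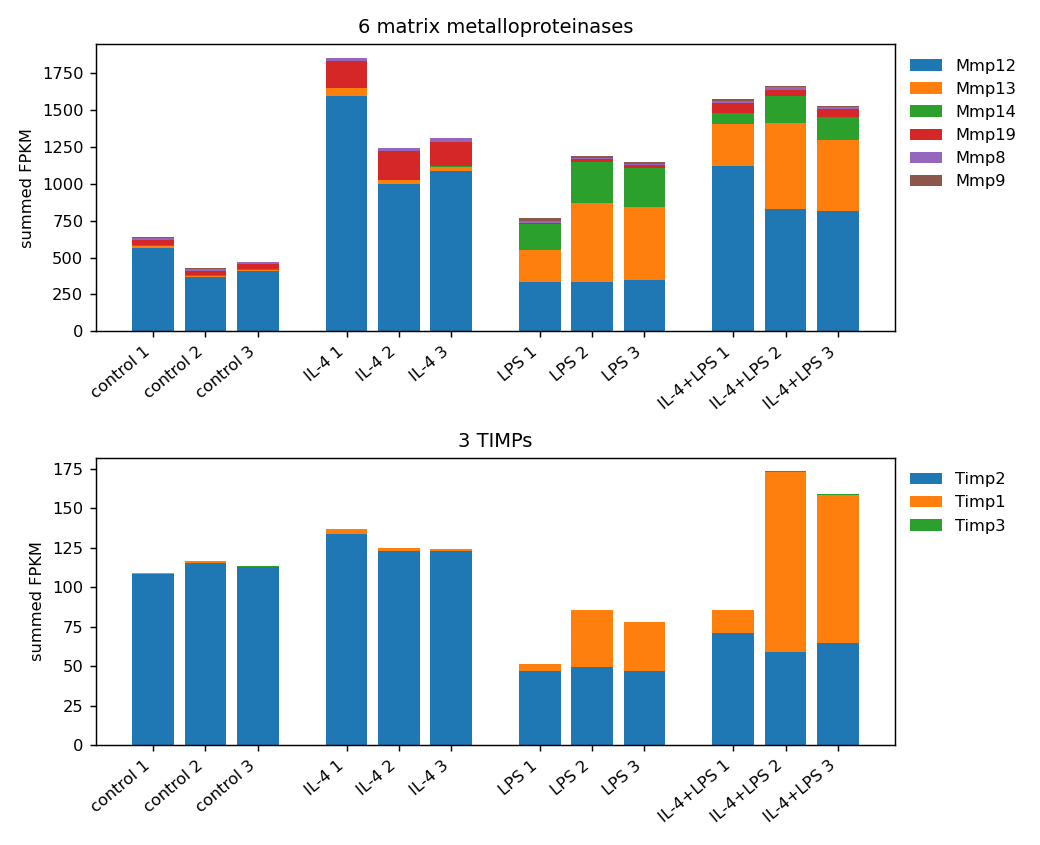
Summed FPKM of the 6 MMP members and of the 3 TIMP members (y axis, linear) in each of the 12 samples (x axis), with the level of each gene as a coloured segment of the bar. Mmp12 makes up a mean of 86.9% of the MMP sum in control and 34.1% in LPS, where Mmp13 and Mmp14 take most of the rest.

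The make-up of the family differed between groups even where the sums were near. The 6 MMP members summed to 512 ± 110 FPKM (SD, n = 3) in control cells, 1468 ± 336 with IL-4, 1034 ± 235 with LPS and 1586 ± 68.1 with both. Mmp12 held 86.9% ± 1.55 of the sum in control and 83.2% ± 3.05 in IL-4, but 34.1% ± 8.41 in LPS and 58.3% ± 11.4 in IL-4+LPS. Mmp13 held 1.83% in control and 38.8% in LPS, and Mmp14 held 1.67% in control and 22.9% in LPS.

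The 3 TIMP members summed to 113 ± 3.60 FPKM (SD, n = 3) in control cells, 128 ± 7.02 with IL-4, 71.7 ± 18.2 with LPS and 139 ± 46.9 with both. Timp2 was 99.3% of this sum in control. In IL-4+LPS it was 82.7, 34.1 and 40.7% in replicates 1 to 3, and Timp1 was 17.3, 65.8 and 59.2%. Timp1 was thus above Timp2 in replicates 2 and 3 and below it in replicate 1. The ratio of MMP to TIMP transcripts was 4.56 ± 1.13 (SD, n = 3) in control cells, 11.3 ± 1.94 with IL-4, 14.5 ± 0.558 with LPS and 12.5 ± 5.04 with both. No test was run on the sums, and the ratio is of RNA levels, not of protease and inhibitor.

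**Figure D4:**
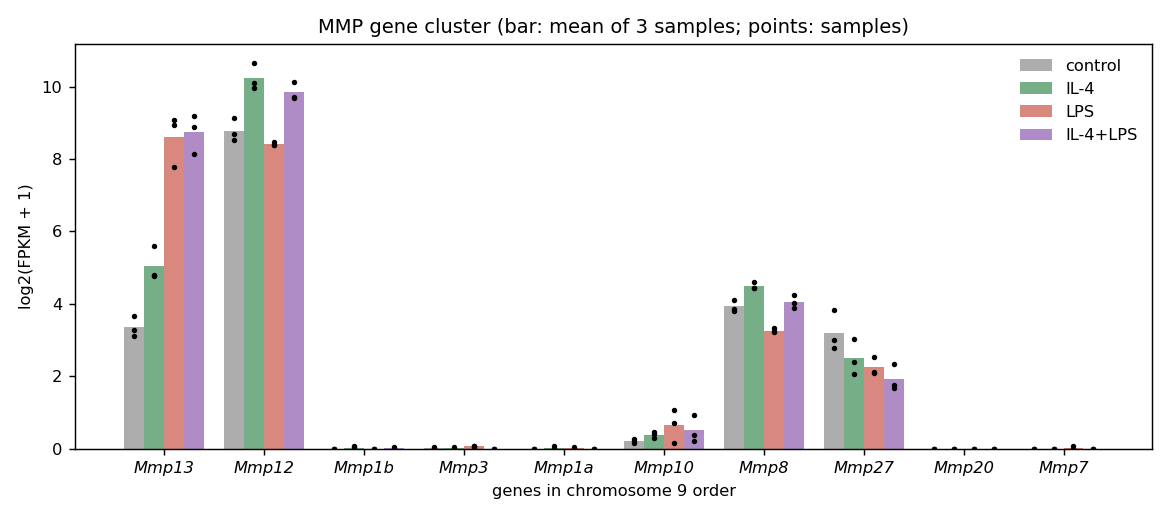
Level of the 10 Mmp genes of the chromosome 9 cluster on the log2(FPKM + 1) scale (y axis), in their order along the chromosome (x axis), for the 4 groups. Bars are means of 3 samples and points are samples. Mmp12, Mmp13, Mmp8 and Mmp27 are expressed, and the other 6 genes stay below or near 1 FPKM.

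Mmp13, Mmp12 and Mmp8 belong to a cluster of 10 Mmp genes that spans 427 kb of chromosome 9 (7272514 to 7699416), with no row of another gene inside it. The order is Mmp13, Mmp12, Mmp1b, Mmp3, Mmp1a, Mmp10, Mmp8, Mmp27, Mmp20 and Mmp7. Mmp13 and Mmp12 are neighbours and both have an AP-1 match close to the start, as shown above. Mmp13 rose 44.4-fold with LPS, and Mmp12 did not pass the threshold. Mmp27 starts 2971 bases beyond Mmp8. It had means of 8.68 ± 3.88 FPKM (SD, n = 3) in control cells, 4.88 ± 2.03 with IL-4, 3.80 ± 0.842 with LPS and 2.89 ± 1.00 with both. It fell with LPS (log2 difference −0.95, adjusted p = 0.016 by limma) and did not pass with IL-4 (−0.70, adjusted p = 0.101), whereas Mmp8 rose with IL-4.

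Of the other 18 rows for MMPs and TIMPs, 3 passed the filter, and the other 15 had no value above 0.483 FPKM. Mmp25, a membrane-anchored MMP known from leukocytes, was at 0.126 ± 0.0445 FPKM in control and 2.43 ± 0.751 in LPS (SD, n = 3), a log2 difference of 1.59 (adjusted p = 7.66e-05 by limma). It rose from 0.0475 ± 0.0160 in IL-4 to 2.05 ± 0.927 FPKM in IL-4+LPS (SD, n = 3), a log2 difference of 1.49 (adjusted p = 0.000139 by limma). Mmp25 was no higher than 0.177 FPKM in control and 0.0603 in IL-4, so it passed the filter only through the groups given LPS. Its direction with LPS was thus fixed by the filter, and its values are a description. Mmp10, a stromelysin, had means from 0.164 in control to 0.619 FPKM in LPS and no call.

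Among 30 listed genes of pericellular proteolysis, which act beside the MMPs as plasminogen activators, their inhibitors, ADAM proteases, substrates and binding partners, 24 were expressed. With LPS 10 rose, 9 fell and 5 did not pass, against 16.9% and 57.7% of all rows. Serpinb2, Plat and Adamts4 were among those that rose and were below 1 FPKM in every control and IL-4 sample. They passed the filter only through the groups given LPS, which fixed their direction in both LPS comparisons. With IL-4 7 rose, 4 fell and 13 did not pass, against 16.0% and 21.0% of all rows. The median log2 differences of the 24 were 0.18 with LPS and 0.06 with IL-4. With LPS after IL-4, 10 were higher and 9 lower, against 15.0% and 57.9% of all rows. In IL-4+LPS against LPS, 4 were higher and 3 lower, against 15.0% and 15.8%, and in the interaction 1 was higher and 1 lower, against 4.58% and 4.63%. The last 4 counts are near the shares of all rows.

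Plasmin, the product of the plasminogen activators, activates several pro-MMPs. Plau, the urokinase plasminogen activator, fell with LPS from 105 to 8.20 FPKM (log2 difference −3.65, adjusted p = 1.49e-05 by limma). Its inhibitor Serpinb2 went from 0.0190 to 32.4 FPKM, but it passed the filter only through the groups given LPS. The filter thus fixed the direction of Serpinb2, and its values are a description. The disintegrin metalloproteinase Adam19 fell from 13.4 to 1.73 FPKM with LPS. With IL-4, the matrix protein Fn1 rose from 0.241 to 19.5 FPKM and the urokinase receptor Plaur from 44.4 to 118 FPKM. Fn1 passed the filter only through the groups given IL-4, which fixed its direction. Thbs1, a matrix protein that binds MMPs, fell from 30.2 to 0.771 FPKM with IL-4, and Lcn2, which forms a complex with MMP9, fell from 27.8 to 7.74 FPKM. Mmp9 and Lcn2 were thus both lower with IL-4.

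The expressed genes whose pattern over the 12 samples was most like that of each member were named from Pearson's r on the log2 scale, as a description. They were Arl5c (0.997), Cybb (0.992) and Pion (0.991) for Mmp9, Mllt6 (0.998), Tor1aip1 (0.998) and Mefv (0.998) for Mmp14, and Med13l (0.995), Aff1 (0.995) and Ccl9 (0.994) for Mmp13. For Mmp12 they were Arhgap6 (0.975), Lipn (0.974) and Atp1b3 (0.971), for Mmp8 Ctsl (0.986), Atp6v0d2 (0.979) and Mettl7a1 (0.976), and for Mmp19 Mcf2l (0.985), Irf4 (0.982) and Ptgs1 (0.980). Timp1 was most like Col27a1 (0.989), Itga1 (0.983) and Tmem39a (0.982), and Timp2 most like Slc17a5 (0.996), Fbxo8 (0.994) and Got1 (0.994). Among the members, r was 0.944 for Mmp9 and Mmp14, 0.926 for Mmp13 and Timp1, 0.907 for Mmp8 and Mmp19, −0.974 for Mmp14 and Timp2, and −0.04 for the neighbours Mmp12 and Mmp13. These values follow the 4 groups and share their samples.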

How the data were processed

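Poly-A RNA libraries from 12 BMDM samples were sequenced as paired reads. Per the study's methods and the submitters' processing notes, the authors aligned reads to mm10 with TopHat2 (2.0.7) and deposited 1 table per sample of FPKM values from Cufflinks (2.0.2). No normalization between samples was described, and the strand setting of the counting was not given in the sources used here. Fragment counts were not used here, so absolute depth is unknown and intervals rest on the spread between samples. File starts were taken as counted from 0 and 1 was added.

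Rows with at least 1 FPKM in at least 1 sample (11191) were fitted on log2(FPKM + 1) with limma 3.58.1 (R 4.3.3), group means over all 12 samples and an intensity trend. P-values are two-sided, adjusted by Benjamini-Hochberg within each contrast, with a threshold of 0.05. The fit was tested on simulated data. The members and lists were chosen with earlier results of these data known. All members are named, with every other expressed MMP or TIMP, the 2 largest called changes per direction of the pericellular proteolysis list in LPS and IL-4 minus control, and the 3 rows most correlated with each member. A gene named by this rule is not reported here. Gene overlaps are from GENCODE vM21 and promoters from RefSeq. Alternatives were a pseudocount of 0.1, no filter or a filter in 3 samples, median scaling, quantile normalization, no trend, compared groups only, a replicate block, a 2-fold minimum, per-gene ANOVA with Tukey tests, and each sample left out in turn. Fitting without replicate 1 of every group was an alternative chosen after seeing the data. Figures used matplotlib 3.10.9.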

Additional observations from a re-analysis of the deposited data

Results flagged for a closer look

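By the interaction term in limma with adjustment over all rows, where 4.58% of rows were higher and 4.63% lower, the response to LPS differed between cells with and without prior IL-4 for 1 member and for 2 of the named genes of pericellular proteolysis. Mmp19 had an interaction of −1.06 log2 units (adjusted p = 0.0422), that is, a larger log2 fall with LPS after IL-4. This call was lost in 10 of the 12 fits that left out a sample, with a pseudocount of 0.1 (adjusted p = 0.0581) and with no filter (adjusted p = 0.11). Serpinb2, an inhibitor of plasminogen activators, had −2.29 (SE 0.54, adjusted p = 0.0253), and its means were 32.4 FPKM in LPS and 5.58 FPKM in IL-4+LPS. Thbs1 had 2.71 (SE 0.42, adjusted p = 0.00278), and its LPS response changed sign. It fell with LPS without IL-4 (log2 difference −1.09) and rose with LPS after IL-4 (1.62). That rise was from a low mean of 0.771 FPKM in IL-4 to 4.35 FPKM in IL-4+LPS. Groups of 3 samples were not tested for outlying samples.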

How the results depend on the processing

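The rises of Mmp9, Mmp13, Mmp14 and Timp1 in both LPS comparisons, the falls of Timp2 in both, and the IL-4 changes of Mmp9, Mmp12, Mmp13, Mmp14 and Mmp19 kept their direction and call under every alternative run, except that a 2-fold minimum removed Timp2 from the calls in IL-4+LPS minus IL-4. Over the alternatives other than leaving out a sample, 395 of 432 member values kept direction and call, 18 lost the call, 17 gained it and 2 changed sign. With a sample left out, 447 of 480 did, 20 lost it, 5 gained it and 8 changed sign. Under median scaling Mmp12 changed sign, to 0.037 in LPS minus control and 0.023 in IL-4+LPS minus IL-4, and under quantile normalization it was called, at −0.58 (adjusted p = 0.0328) and −0.59 (adjusted p = 0.0321). With a 2-fold minimum, 1 member was lower in LPS minus control, 1 lower in IL-4+LPS minus IL-4, and 2 higher and 0 lower in IL-4+LPS minus LPS. Members lower in IL-4+LPS minus LPS numbered 1 with no filter (6.35% of all rows), 1 with only the compared groups (11.5%) and 1 with Tukey tests, and 1 to 2 with a sample left out, the difference being Mmp14. Members higher in the interaction numbered 3 with replicates 2 and 3 only (13.2% of all rows), 1 with ANOVA and 0 to 1 with a sample left out. Members lower in the interaction numbered 0 with a pseudocount of 0.1 (3.90% of all rows), 0 with no filter (1.92%), 2 with quantile normalization (5.78%), 2 with replicates 2 and 3 only (12.4%), 2 with ANOVA and 0 to 2 with a sample left out. The share of all rows was not computed for the 2-fold minimum, the Tukey and ANOVA tests or the fits with a sample left out. Those counts describe the members alone. The Tukey and ANOVA p-values were not adjusted over rows, so their threshold differs from that of the limma counts. With a sample left out, values that changed sign ran from −0.27 to 0.45 for Mmp13 in IL-4+LPS minus LPS, from −0.21 to 0.18 for the Mmp12 interaction and from −0.047 to 1.77 for the Timp1 interaction, none of them called. Leaving out IL-4+LPS replicate 1 brought calls for Mmp12 in IL-4+LPS minus IL-4 (adjusted p = 0.0415), Timp2 in IL-4 minus control (0.046), Timp1 in IL-4+LPS minus LPS (0.0206) and the Mmp14 interaction (0.0222), and leaving out LPS replicate 1 a call for the Mmp13 interaction (0.0212), all by limma. The cause of these changes was not tested. The interaction could not be fitted with only the compared groups, since it uses all of them.

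Samples with the same number deviated together weakly (18 pairs, r from 0.00 to 0.386, 11 over 0.1), 7 of 12 correlated best with a sample of their own number, and the labels do not say what a number marks. With the replicate number as a block, 1 member was higher in the interaction, Mmp9 at 0.59 (adjusted p = 0.00435 by limma), and the calls over all rows in the interaction went from 512 higher and 518 lower to 1145 and 1095. Mmp12 was called in the block fit, at −0.37 in LPS minus control (adjusted p = 0.0203) and −0.40 in IL-4+LPS minus IL-4 (adjusted p = 0.0155). The block changed no other member's call.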
